A study of Mus musculus with 13 samples.

Results

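Hapln1, Matn1, Matn3, Comp and Cnmd encode proteins of the cartilage matrix, and the Sox9 peaks around these 5 genes were described here in rib and nasal chondrocytes, the cells that make cartilage. The members were the peaks whose centres lay in a fixed mm9 window for each gene. The windows were chr13:89600000-89830000 for Hapln1, chr4:130440000-130600000 for Matn1, chr12:8890000-9040000 for Matn3, chr8:72840000-72960000 for Comp and chr14:79980000-80120000 for Cnmd, the gene formerly named Lect1. They held 35 of the 27656 rib peaks and 16 of the 17440 nasal peaks. All animals were untreated wild-type ICR mice. Rib chondrocytes were freed by enzyme digestion at postnatal day 1 and nasal septum chondrocytes at embryonic day 17.5, so tissue and stage differ together. Each tissue gave 1 Sox9 library, made with the same antibody, and the series' other 11 libraries (histone marks, p300, RNA polymerase II, inputs and IgG) were not analysed here.

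Sox9 is an HMG-box transcription factor that binds the minor groove of DNA and bends it. In chondrocytes it acts with Sox5 and Sox6 on enhancers of matrix genes, often at paired SOX sites. Hapln1 encodes link protein, which locks aggrecan onto hyaluronan and so stabilises the proteoglycan aggregates that let cartilage bear load. Matn1 and Matn3 encode matrilins, oligomeric adaptors with von Willebrand factor A domains that join collagen fibrils to proteoglycans. Comp encodes cartilage oligomeric matrix protein, a pentameric thrombospondin that binds collagens. Cnmd encodes chondromodulin, a membrane glycoprotein whose released domain inhibits the growth of blood vessels.

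The deposited lists give the position of each peak without height, fold or significance, so read depth and peak strength are unknown, and the cell type could not be checked against markers. No replicate check was possible, and every share below describes 1 library per tissue. Rib peaks were deposited as a whole list and as its Class I and Class II parts, whose definition no source used here gives. The whole rib list is labelled unfiltered and the nasal list is not, and whether both were filtered alike is unstated. The place of a peak in its list, given below as a percent of the list with the first peak lowest, is a description of the file, because what the order stands for is likewise unstated in those sources. No mm9 annotation was used, so peaks were not placed in promoters, introns or exons. The windows also reach beyond the named genes. In RefSeq (GRCm38.p6, used for names and lengths) Hapln1 spans 71.3 kb, Cnmd 24.5 kb, Matn3 24.1 kb, Matn1 11.1 kb and Comp 8.52 kb. The nearest protein-coding neighbours there are Edil3 and Vcan for Hapln1, Laptm5 and Ptpru for Matn1, Laptm4a and Wdr35 for Matn3, Upf1 and Crtc1 for Comp, and Sugt1 and Pcdh8 for Cnmd. Vcan encodes versican, a hyaluronan-binding proteoglycan. Which gene a peak acts on was not tested.

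The RefSeq promoter table held 4 of the 5 members, and the 250 bases before their start sites are shown as the regulatory sequence next to each gene's start. The member not among them is Comp. The build is GRCm38.p6, whose positions cannot be set beside the mm9 peaks: Hapln1 is chr13:89540386-89540635 on the + strand, Matn1 chr4:130944135-130944384 on the + strand, Matn3 chr12:8947679-8947928 on the + strand and Cnmd chr14:79662184-79662433 on the - strand. Each runs 5′ to 3′ towards the gene, and capitals mark matches to ACAAT, the core of SOX sites, or to GGGCGG, the GC box, on either strand.
Hapln1: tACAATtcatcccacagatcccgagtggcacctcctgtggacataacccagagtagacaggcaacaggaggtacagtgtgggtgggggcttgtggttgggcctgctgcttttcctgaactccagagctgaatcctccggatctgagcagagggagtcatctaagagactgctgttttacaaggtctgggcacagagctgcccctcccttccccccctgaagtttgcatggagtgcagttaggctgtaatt
Matn1: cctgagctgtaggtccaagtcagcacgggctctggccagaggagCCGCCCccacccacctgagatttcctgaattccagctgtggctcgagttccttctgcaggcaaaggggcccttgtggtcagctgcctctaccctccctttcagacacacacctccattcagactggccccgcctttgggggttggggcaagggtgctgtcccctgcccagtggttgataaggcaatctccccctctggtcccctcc
Matn3: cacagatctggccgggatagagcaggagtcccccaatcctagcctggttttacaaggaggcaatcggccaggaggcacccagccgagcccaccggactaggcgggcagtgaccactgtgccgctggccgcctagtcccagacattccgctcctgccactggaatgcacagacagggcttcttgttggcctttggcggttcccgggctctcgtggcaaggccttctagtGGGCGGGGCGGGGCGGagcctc
Cnmd: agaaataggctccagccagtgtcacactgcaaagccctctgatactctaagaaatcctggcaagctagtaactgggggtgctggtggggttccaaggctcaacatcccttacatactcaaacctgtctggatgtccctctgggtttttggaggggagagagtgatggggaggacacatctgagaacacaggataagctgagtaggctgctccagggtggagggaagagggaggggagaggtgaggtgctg

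These 4 promoters differed in composition. ACAAT, which reads as ATTGT on the other strand, occurred once, in Hapln1, where it starts 249 bases before the start site, and 27.7% of all 32851 promoter windows of this length hold it. The longer SOX match AACAATGG, which reads as CCATTGTT on the other strand, was found in none of the 4, and 0.901% of all windows hold it. GGGCGG, which reads as CCGCCC on the other strand and is a motif chosen after the sequences were seen, occurred 3 times in Matn3, starting 22, 17 and 12 bases before the start site with shared bases between neighbouring matches. Matn1 held 1 match on the other strand, starting 206 bases before the start site, and 32.7% of all windows hold the motif. TATAAA, which reads as TTTATA on the other strand, also chosen afterwards, was in none of the 4, and 12.4% of all windows hold it. GC content was 65.2% in Matn3, 62.0% in Matn1, 54.4% in Hapln1 and 54.0% in Cnmd, beside a median of 52.4% over all windows. Matn3 held 14 CpG pairs and Cnmd 0, beside a median of 6. A match in letters is not a bound site, and a missing match covers only these 250 bases.

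Sox9 peaks stood more densely around these genes than over the genome as a whole, with Matn1 the sparsest. The windows cover 800 kb and held 43.8 rib peaks per Mb, beside 10.5 per Mb over the span of the lists, or 4.17 times that density. The ratio was 6.78 for Class I, 3.31 for Class II and 3.02 for the nasal list. By window, Hapln1 held 9 rib and 2 nasal peaks, Cnmd 9 and 7, Matn3 7 and 4, Comp 7 and 3, and Matn1 3 and 0. Windows differ in length, and per Mb the rib order was Cnmd with 64.3, Comp with 58.3, Matn3 with 46.7, Hapln1 with 39.1 and Matn1 with 18.8. Each window was set beside a grid of genome tiles as long as itself. Tiles with at least as many rib peaks made up 2.31% for Cnmd, 3.52% for Comp, 5.41% for Matn3, 6.92% for Hapln1 and 23.9% for Matn1. The corresponding nasal shares were 1.81% for Cnmd, 8.82% for Matn3, 11% for Comp and 31.9% for Hapln1. Matn1 had no nasal peak to compare. Cnmd thus led in both tissues, whereas Hapln1 ranked with the fuller rib tiles but with many nasal tiles. The tiles include gene-free regions and the windows were drawn around matrix genes with earlier results known, so these shares are a description and not a test.

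**Figure D1:**
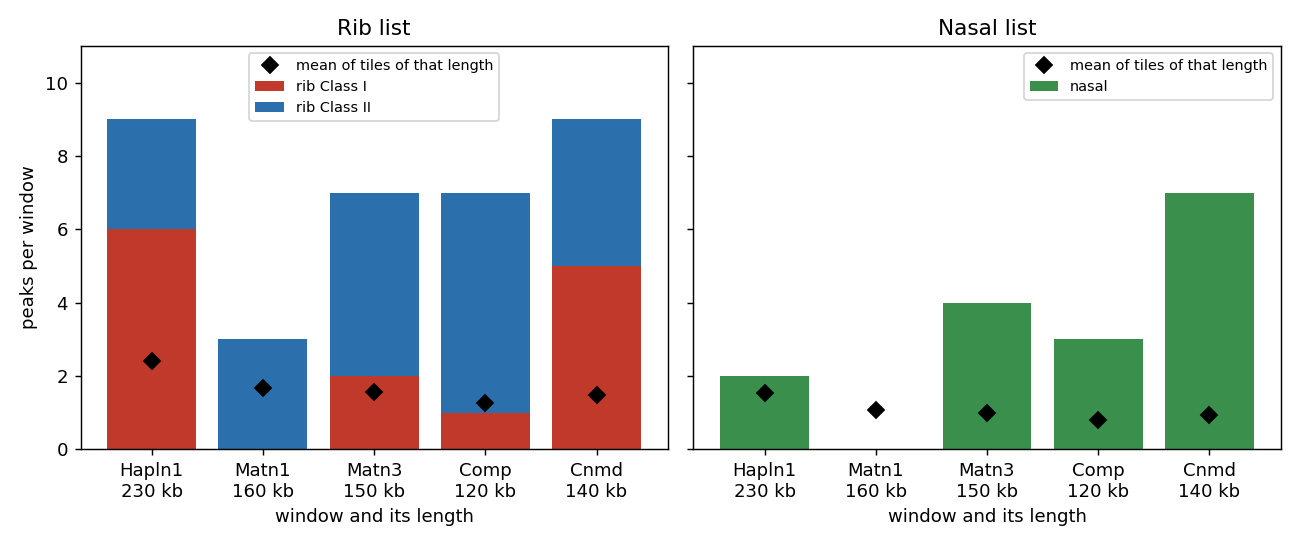
Peaks per window (vertical axis, number of peaks) for the rib list, divided into Class I and Class II, and for the nasal list. Bars are counts and diamonds the mean of all genome tiles as long as the window. Rib counts lie above the tile mean in all 5 windows, and nasal counts in all but Matn1, which holds 0 nasal peaks.

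Of the 35 rib peaks, 14 were Class I, or 40.0% (95% exact Clopper-Pearson interval 23.9% to 57.9%), beside 24.6% of all rib peaks. They were unevenly distributed, with 6 in Hapln1, 5 in Cnmd, 2 in Matn3, 1 in Comp and 0 in Matn1. Nasal peaks overlapped 13 of the 35 rib peaks by at least 1 bp, or 37.1% (21.5% to 55.1%), beside 42.8% of all rib peaks. Among Class I members the count was 8 of 14, or 57.1% (28.9% to 82.3%), beside 68.8% of all Class I peaks. Among Class II members it was 5 of 21, or 23.8% (8.22% to 47.2%), beside 34.4%. Seen from the nasal list, rib peaks overlapped 13 of 16 members, or 81.2% (54.4% to 96.0%), beside 68.2% of all nasal peaks. Each of these intervals includes the share over the whole list, so with so few peaks no difference from it was detectable. The intervals cover counting error only and are too narrow, as peaks of a locus are not independent. Overlap varied between genes, with 6 of 9 rib peaks in Cnmd, 4 of 7 in Matn3, 2 of 7 in Comp, 1 of 9 in Hapln1 and 0 of 3 in Matn1, and this spread was not tested.

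**Figure D2:**
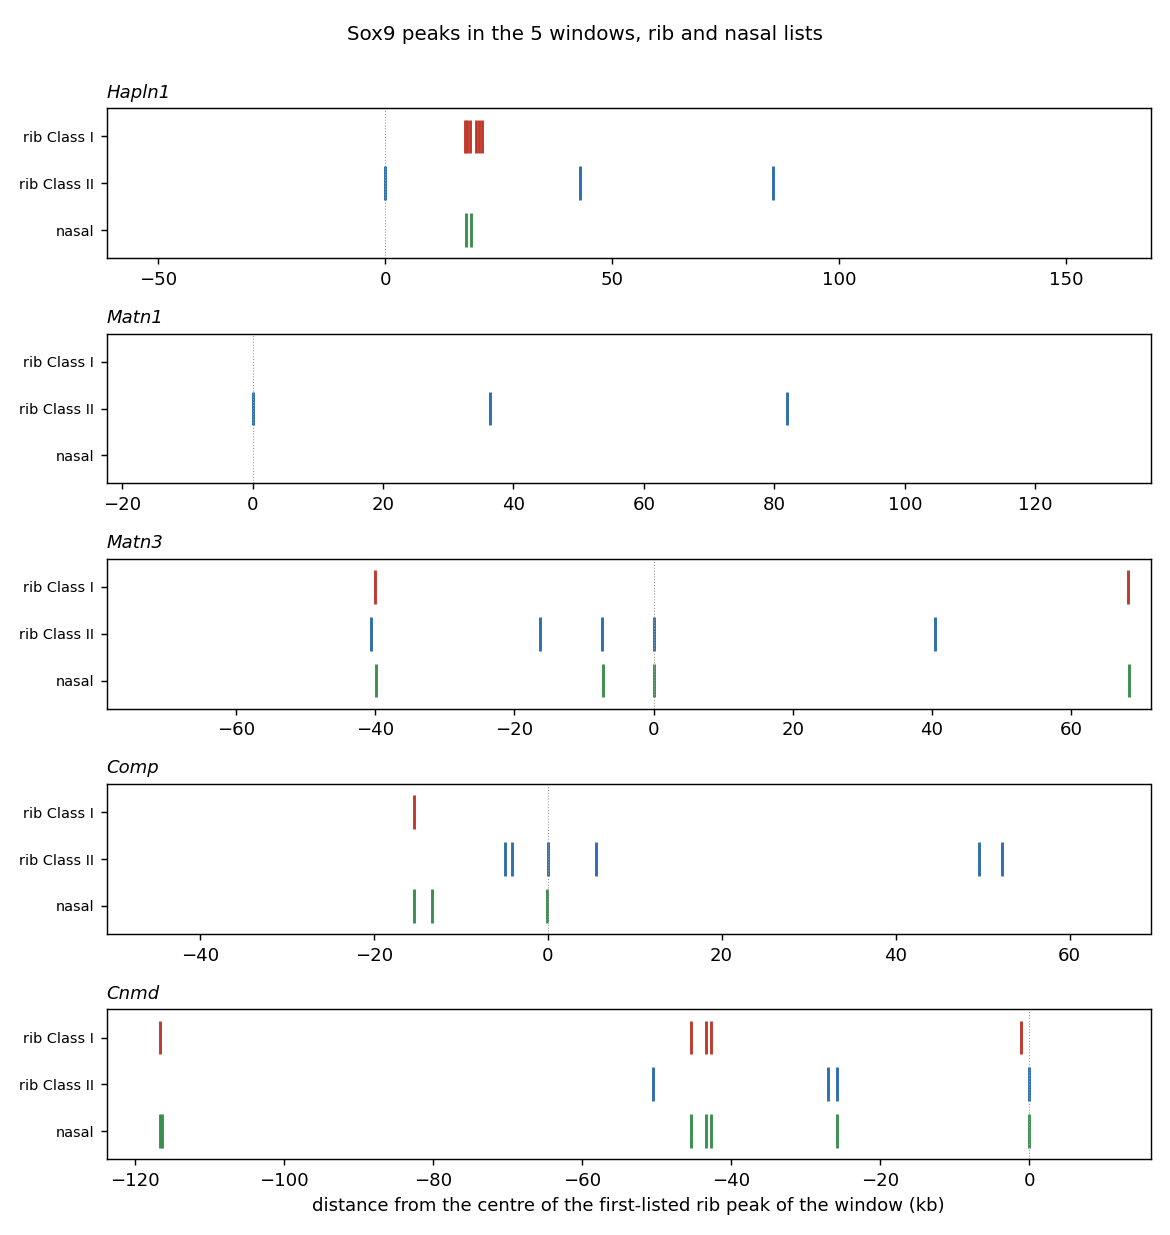
Positions of the Sox9 peaks in each window, as distance in kb (horizontal axis) from the centre of the first-listed rib peak, with separate tracks for rib Class I, rib Class II and nasal peaks. Each line is 1 peak. The 6 Class I peaks of Hapln1 stand together, the 3 Matn1 peaks stand apart from each other without a nasal peak, and 6 of the 7 nasal peaks of Cnmd lie on a rib peak.

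Around Hapln1, the link protein gene, the rib library showed a compact run of Class I peaks that the nasal list matched only in part. The 6 Class I peaks lay within 4.16 kb, at chr13:89678770-89682932, with no Class II peak between them. Tiles of 230 kb with at least 6 Class I peaks made up 1.33% of the genome grid, and those with at least 3 Class II peaks 25.4%. Among 1958 runs of at least 3 rib peaks at gaps of up to 10 kb, 16, or 0.817%, held at least 6 Class I peaks. Of these 16, 7 consisted of Class I alone. The cut-off of 6 is the Hapln1 run's own count, and that run is among the 16 and the 7. Runs of fewer than 6 peaks are among the 1958 and cannot reach it, so the share also reflects run length. The peaks of the Hapln1 run are, in order of position, 274, 191, 51, 138, 232 and 296 bp wide. They stand at 73.3%, 13.1%, 10.9%, 35.8%, 25.6% and 43.8% of the rib list. The earliest in the list was the narrow peak of 51 bp, chr13:89680072-89680122, which is number 250 of the 6794 Class I peaks. Rib peaks no wider than that made up 3.3% of the list.

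The nasal list placed 2 peaks in this run, and neither was centred on a rib peak. The nasal peak chr13:89679159-89679316 shared 19 bp with the rib peak chr13:89679298-89679488, and their centres were 155.5 bp apart. It stood at 98.2% of the nasal list, near its end, whereas its rib partner stood at 13.1% of the rib list. The other nasal peak, chr13:89680172-89680504, was the widest nasal peak of the window with 333 bp, stood at 35.8% of the nasal list and lay 49 bp from the rib peak of 51 bp. Chromatin had been sheared to fragments of 100 to 600 bp, so a gap of this size is below the fragment length. Counting gaps of up to 1 kb in place of shared bases raised the Hapln1 rib peaks with a nasal partner from 1 to 4 of 9, beside 49.9% of all rib peaks under that rule. Both Hapln1 nasal peaks had a rib partner under it, beside 78.1% of all nasal peaks. The last 2 Class I peaks of the run, 1.48 and 2.13 kb from the nearest nasal peak, remained without one. Of the 16 runs with at least 6 Class I peaks, 2, or 12.5%, had at most 1 overlapped peak. The Hapln1 run is among these 2, and both cut-offs are its own counts.

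The 3 Class II peaks of the Hapln1 window flanked the run. The first-listed rib peak of the window was chr13:89661244-89661425, at 9.72% of the rib list, and it lay 17.7 kb from the nearest nasal peak. The peaks chr13:89704266-89704480 and chr13:89746678-89746940 stood at 58.6% and 74.1% of the list and lay 23.8 and 66.2 kb from any nasal peak. The 2 nasal peaks of the window compare with a mean of 1.52 over all tiles of 230 kb, so the nasal count was low only beside the rib count. At most 2 nasal peaks were held by 77.6% of all tiles of that length, and by 6.19% of the 792 tiles with at least 9 rib peaks. Both cut-offs are the window's own counts. With each window's own counts, the latter share was 7.32% for Matn1, 27.8% for Comp, 41.8% for Matn3 and 67.8% for Cnmd.

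**Figure D3:**
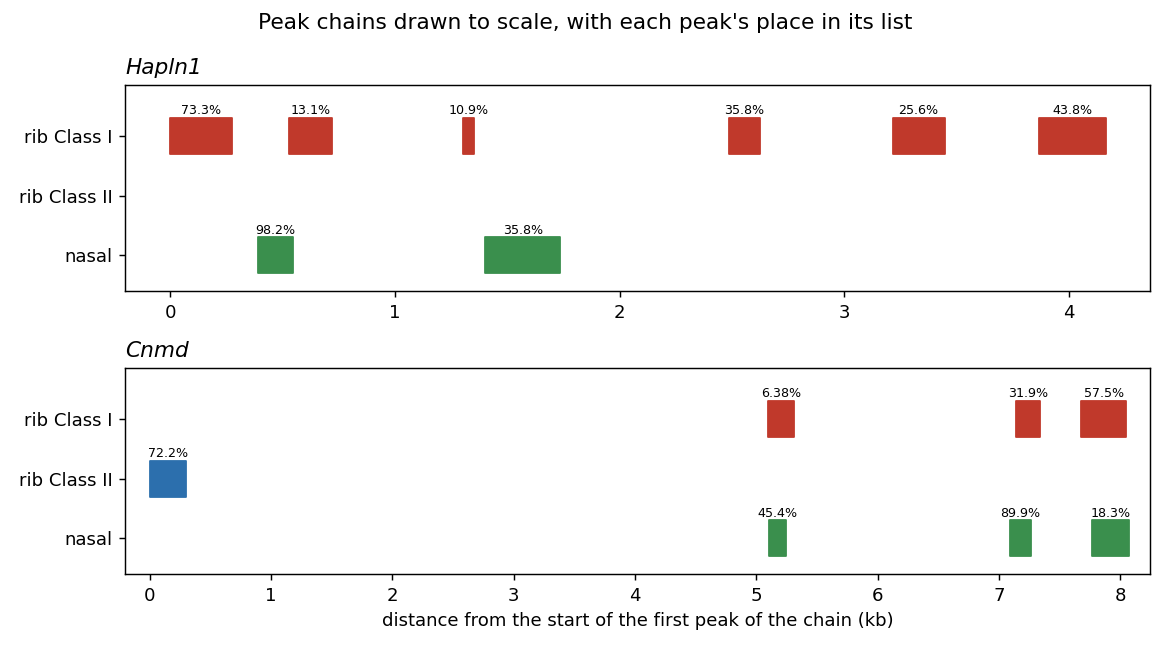
The Hapln1 run and the Cnmd run drawn to scale, as distance in kb (horizontal axis) from the start of the first peak, with rib Class I, rib Class II and nasal tracks. Bars span each peak and the number above a bar is its place as a percent of its list. In Hapln1 the 2 nasal peaks are not centred on rib peaks and share 19 bp with 1 of them, whereas in Cnmd each of the 3 Class I peaks lies over a nasal peak.

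The matrilin genes contrasted with each other. Matn1 encodes the matrilin long known as cartilage matrix protein. Its window held 3 isolated Class II rib peaks, and neither Class I nor nasal peaks were listed inside it. The peaks were chr4:130462290-130462408, chr4:130498655-130498817 and chr4:130544250-130544432, 119, 163 and 183 bp wide. They stood late in the rib list, at 63.4%, 77.8% and 86.6%, and all 3 came after place 17440, the length of the nasal list. Neighbouring peaks of the window were 36.2 and 45.4 kb apart. The nearest nasal peaks lay 30.0, 66.3 and 112 kb away. A rib peak 2.3 kb and a nasal peak 7.77 kb beyond the left edge were left out by the rule. The missing nasal peak thus depends on where the window ends. A list that names only peaks past a threshold does not show that Sox9 was absent below it. Tiles of 160 kb without a nasal peak made up 60.4% of the genome grid, and 7.32% of the 3933 tiles with at least 3 rib peaks. Those with at least 3 Class II peaks made up 17.7% of the grid.

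Around Matn3 the rib list held the earliest-listed peak of all 5 windows, and each of the 4 nasal peaks met a rib peak. That peak, chr12:8968455-8968729, is of Class II, 275 bp wide and number 310 of the rib list, at 1.12%. It contained the whole nasal peak chr12:8968529-8968705, 177 bp wide, which stood at 21.4% of the nasal list. A second early Class II peak, chr12:8961108-8961337, stood at 3.28% and shared 77 bp with the nasal peak chr12:8961261-8961468, the first-listed nasal peak of the window at 13.8%. With a later Class II peak at chr12:8952169-8952230, at 80.1%, these formed a run of 3 peaks over 16.6 kb. The other nasal peaks of the window stood at 17.6% and 24.6%, so all 4 came early in the nasal list.

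Class I peaks of the Matn3 window lay on either side of that run. The peak chr12:9036738-9036883, at 37.1% of the rib list, lay wholly inside the nasal peak chr12:9036719-9037132, which is 414 bp wide. The peak chr12:8928504-8928514 was only 11 bp wide and stood at 58.1%. Rib peaks no wider than that made up 0.278% of the list. It lay inside the widest nasal peak of the window, chr12:8928493-8928948, which has 456 bp, a width reached by 1.46% of nasal peaks. A Class II peak, chr12:8927818-8928054, stood 449 bp before it and 438 bp from the nasal peak. The remaining Class II peak, chr12:9009037-9009119, stood at 85.2% and 27.6 kb from any nasal peak. Tiles of 150 kb with at least 2 Class I peaks made up 9.17% of the genome grid, and those with at least 5 Class II peaks 7.62%.

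Around Comp, 6 of 7 rib peaks were Class II, beside 75.4% of all rib peaks, and the 2 earliest-listed nasal peaks coincided with rib peaks of different class. The Class II peak chr8:72890602-72890779 stood at 3.15% of the rib list and shared 147 bp with the nasal peak chr8:72890578-72890748, the first-listed nasal peak of the window at 8.7%. The only Class I peak, chr8:72875239-72875398, stood at 21.9% and shared 158 bp with the nasal peak chr8:72875241-72875414, at 19.5%, with centres 9 bp apart. The places of these pairs were thus similar in both lists. The third nasal peak, chr8:72877284-72877422, stood later, at 68.7%, and 1.89 kb from the nearest rib peak.

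The other Comp peaks were listed in rib alone. Around the shared Class II peak, chr8:72885748-72885865, chr8:72886556-72886727 and chr8:72896103-72896339 completed a run of 4 Class II peaks over 10.6 kb. They stood at 62.3%, 31.8% and 80.9% of the rib list, each 3.85 to 5.35 kb from the nearest nasal peak. A pair further along, chr8:72940197-72940353 at 12.0% and chr8:72942818-72943038 at 45.7%, lay 23.2 and 20.5 kb from the nearest nasal peak. The former was thus an early-listed rib peak without a nasal partner. Tiles of 120 kb with at least 6 Class II peaks made up 3.35% of the genome grid, and those with at least 1 Class I peak 17.9%.

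Around Cnmd, the gene of the antiangiogenic chondromodulin, rib and nasal peaks coincided at 6 places. A run of 4 rib peaks covered 8.05 kb at chr14:80053171-80061219, and its 3 Class I peaks each shared bases with a nasal peak. The peak chr14:80058263-80058480, at 6.38% of the rib list and number 112 of the 6794 Class I peaks, contained a nasal peak of 145 bp. The peaks chr14:80060307-80060508 and chr14:80060849-80061219 shared 127 and 286 bp with nasal peaks. The last of these was the widest rib peak of the 5 windows, with 371 bp, a width that 3.7% of rib peaks reach. Places differed between the lists within this run, as the rib peaks stood at 6.38%, 31.9% and 57.5% and their nasal partners at 45.4%, 89.9% and 18.3%. The earliest-listed rib peak therefore did not pair with the earliest-listed nasal peak. The Class II peak of the run, chr14:80053171-80053471 at 72.2%, lay 4.8 kb from the nearest nasal peak.

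The first-listed Class II peak of the Cnmd window, chr14:80103617-80103859 at 6.03%, contained the first-listed nasal peak, chr14:80103628-80103815 at 7.94%. A Class I peak 883 bp before it, chr14:80102510-80102733, was the latest-listed rib member of the 5 windows, at 88.3%, and shared no base with a nasal peak. Between these and the run, the Class II peak chr14:80077818-80078070 at 69.9% contained a nasal peak at 96.4%, with centres 1 bp apart, so this shared place came late in both lists. Its Class II neighbour chr14:80076718-80076838, at 85.2%, lay 1.01 kb from that nasal peak. At the far side of the window, the Class I peak chr14:79987125-79987193 contained a nasal peak of 44 bp, the narrowest nasal member, and 2.51% of all nasal peaks are no wider than that. A further nasal peak of 74 bp lay 199 bp from it. Tiles of 140 kb with at least 5 Class I peaks made up 0.915% of the genome grid, and those with at least 4 Class II peaks 10.1%. For each window, the cut-offs of these class shares are its own counts.

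**Figure D4:**
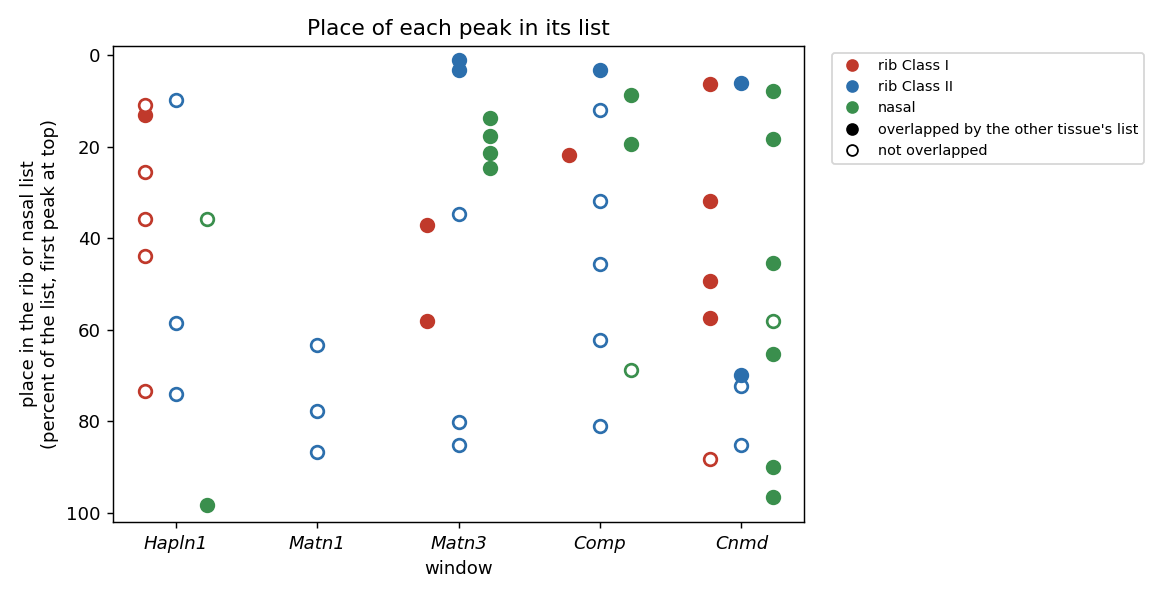
Place of each peak in its own list (vertical axis, percent of the rib or nasal list, first peak at the top) for the 5 windows, coloured by rib Class I, rib Class II and nasal. Filled points are overlapped by the other tissue's list and open points are not. The earliest-listed Class II peaks of Matn3, Comp and Cnmd are filled, whereas that of Hapln1 is open. The 3 Matn1 points are open and low in the plot.

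Over all windows, rib members that a nasal peak overlapped stood earlier in the rib list than those without overlap. Their median place was 21.9% over 13 peaks, against 62.8% over 22 peaks, and the same medians over the whole rib list were 33.6% and 60.4%. The ranges overlapped, from 1.12% to 69.9% and from 9.72% to 88.3%. Class I members stood at a median of 36.4%, beside 61.4% for all Class I peaks, and Class II members at 62.3%, beside 45.7%. The first 10% of the rib list held 6 of the 35 members, or 17.1% (6.56% to 33.6%). These 6 were 2 peaks of Matn3, 2 of Cnmd, 1 of Comp and 1 of Hapln1, and all but the Hapln1 peak were overlapped by a nasal peak, beside 81.7% of all rib peaks in the first 10% of the list. The nasal members stood at a median of 30.2% of the nasal list. Centres of overlapping pairs lay a median of 27.5 bp apart, with a range from 1 to 211.5 bp, beside 36 bp over all pairs of the lists.

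A close neighbour was more frequent among members than over the whole lists. Another rib peak stood within 10 kb of 25 of the 35 rib members, or 71.4% (53.7% to 85.4%), beside 52.9% of all rib peaks, and another nasal peak within 10 kb of 11 of the 16 nasal members, or 68.8% (41.3% to 89.0%), beside 44.9%. Neighbours count for each other, so these intervals are too narrow. Even so, the nasal interval includes 44.9%, and the rib interval begins at 53.7%, just above 52.9%. The windows also held more peaks per Mb than the lists, 4.17 times in rib and 3.02 times in nasal. The neighbour shares are therefore not a trait separate from that density. All 6 peaks of the Hapln1 run, 8 of 9 peaks in Cnmd, 6 of 7 in Comp and 5 of 7 in Matn3 contributed, and none in Matn1. Widths resembled those of the lists, with a median of 191 bp in rib members and 175.5 bp in nasal members, beside 180 and 182 bp. At the window edges, the rib peak nearest to an edge on the inside lay 3.19 kb within the Matn3 window, and the nearest on the outside lay 2.3 kb beyond the Matn1 window. For Comp, a rib peak 3.67 kb and a nasal peak 3.58 kb beyond the edge were left out by the rule.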

How the data were processed

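Sox9 ChIP-seq peaks from 1 rib and 1 nasal septum library were analysed. The authors deposited 4 lists holding chromosome, start and end of each peak in bp, without a score or other value. Positions are on mm9, per the submitters' processing notes. The aligner, the peak caller and the definition of the classes are named in none of the sources used here. Each list stems from a single library, and its depth is unknown. Positions are printed with 1 added to the start.

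Peaks were assigned to windows by their centres. The windows, members and lists were chosen with earlier results of these data known. All members are named, with single peaks described by class, place, width and run. Overlap meant at least 1 shared bp, neighbours lay within 10 kb edge to edge, and a run was at least 3 rib peaks at such gaps. Genome tiles were counted from the start of each chromosome to its last peak. Shares carry 95% exact Clopper-Pearson intervals and no test was run, as peaks are not replicates. Promoters came from RefSeq (GRCm38.p6). The planned comparison of protein sequences was not run. Overlap, gap and tile counts were tested on simulated data. Python 3.11.15, numpy 2.4.6, scipy 1.17.1 and matplotlib 3.10.9 were used.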

Additional observations from a re-analysis of the deposited data

How the results depend on the processing

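Of 83 recomputed values for 10 results, 71 stayed within 1.5 times the count or within the interval of the share or median. Membership by 1 shared bp gave the main value for all 10 results. Leaving out Matn1, which held no Class I or nasal peak, could not alter the Class I and nasal counts or the nasal share. The 71 is therefore not a measure of stability. The share of rib peaks overlapped ranged from 25.7% to 51.4%, and that of nasal peaks from 56.2% to 93.8%. Both ends came from a change of the overlap rule. For the low ends, the shared bases covered 50% or more of each peak. Under that rule the share over all peaks was not computed. The high ends allowed gaps of up to 1 kb, beside 49.9% of all rib and 78.1% of all nasal peaks. Under the main overlap rule, the rib share was 26.9% without Cnmd, 46.2% without Hapln1 and 44.0% in windows widened by 20% on both sides. The share over all rib peaks was 42.8%, so whether the members fell below it depended on the windows. The Class I share ranged from 30.8% without the Hapln1 window to 46.4% without the Comp window. Counts moved with list length: the first 50% of each list held 19 rib, 9 Class II and 10 nasal members, and the rib list shortened to the length of the nasal list held 23 rib and 11 Class II members, since fewer peaks were counted. Windows widened by 20% of their length on both sides held 34 Class II and 25 nasal peaks. Leaving out the Hapln1 window left 8 Class I peaks, and leaving out Cnmd left 9 Class I and 9 nasal peaks. A neighbour stood within 1 kb of 45.7% of rib members, beside 18.5% of all rib peaks, and within 25 kb of 85.7%, beside 71.9%. No paired analysis was possible because each tissue has 1 Sox9 library and no test was run. Peak strength and depth are not in the lists, so differences in sensitivity between the libraries were not tested.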
